A study of Mus musculus with 9 samples.

Results

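The IL-6 family acts through a small set of secreted cytokines, shared receptor chains, the transcription factor Stat3 and the feedback inhibitor Socs3. The 10 genes described here were the rows of the count table whose symbol was Il6, Osm, Lif, Il11, Il6ra, Il6st, Osmr, Lifr, Stat3 or Socs3, out of 52550 genes in all. Each of the 10 was found under 1 Ensembl identifier, and all 10 passed the filter on low counts, as did 22430 genes in all. RNA was sequenced from the dermis of mouse ears in 9 libraries, 3 in each of 3 groups. The VAS+H2O mice received vaseline on the ear for 5 days and ddH2O by gavage for 10 days. The IMQ+H2O mice received imiquimod cream, an activator of innate immunity that gives a psoriasis-like dermatitis, with the same ddH2O gavage. The IMQ+XYF mice received imiquimod and, in place of ddH2O, a decoction of the herbal formula Xiao-Yin-Fang (XYF) at 23.3 mg/g. Gavage began 5 days before the topical application in all groups. The mice were wild-type, of strain C57BL/6 by the labels (C57BL/6J in the methods) and aged 8 weeks. The methods name ear sheets from a pair of mice, without saying how mice map to libraries, while the paper's figure legend gives n = 3 for each group. Libraries may therefore pool mice or share an animal, and p-values measure only the spread between libraries.

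IL-6 family cytokines signal through the shared chain gp130, the product of Il6st. IL-6 binds gp130 with IL-6Rα, and LIF and oncostatin M recruit the LIF receptor or the oncostatin M receptor as the second signalling chain. The receptors activate Janus kinases, which phosphorylate STAT3, and STAT3 induces SOCS3, which in turn inhibits signalling through gp130. In skin, these cytokines come from fibroblasts, keratinocytes and infiltrating leukocytes, and STAT3 is active in the epidermis of psoriatic lesions. Activation of STAT3 by phosphorylation is not measured by RNA sequencing.

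Total counts ran from 28756305 to 79836881 per library, and 3 counts, the floor used here, corresponded to 0.0373 to 0.103 CPM (counts scaled to a common library size, per 1e+06), covering counting error only. Fibroblast genes of the dermis were abundant in every library, with a summed level of 10800 to 26000 CPM over 8 genes. Keratinocyte genes were also present, at 2080 to 5990 CPM in 8 libraries and 14600 CPM in IMQ+XYF 1. Differences are given as log2 fold changes with their standard error (SE) from edgeR's quasi-likelihood test, and a gene was called at a Benjamini-Hochberg adjusted p of 0.05 or lower with an absolute log2 fold change of 1 or higher. In such bulk samples, fewer cells of a type and less RNA per cell cannot be told apart.

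The genes lie on 6 chromosomes of GRCm38, by the GENCODE vM21 annotation. Il6 (ENSMUSG00000025746) lies at chr5:30013114-30019981. Osm (ENSMUSG00000058755), at chr11:4236420-4241026, and Lif (ENSMUSG00000034394), at chr11:4257557-4272514, are neighbours on the plus strand with 16530 bp between them. Il11 (ENSMUSG00000004371) lies at chr7:4772373-4782859, Il6ra (ENSMUSG00000027947) at chr3:89864059-89913196 and Il6st (ENSMUSG00000021756) at chr13:112464070-112510086. Osmr (ENSMUSG00000022146), at chr15:6813577-6874969 on the minus strand, and Lifr (ENSMUSG00000054263), at chr15:7090614-7197489 on the plus strand, are 215644 bp apart. Stat3 (ENSMUSG00000004040) lies at chr11:100885098-100939540 and Socs3 (ENSMUSG00000053113) at chr11:117966079-117970047, both on the minus strand. Exons of Stat3 share 72 bp with Stat5a on the opposite strand, and exons of Il6ra share 242 bp with the antisense gene Gm42809, which had 54 counts over the 9 libraries. The sources used here do not say whether counting took account of strand, so reads of these stretches are uncertain.

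Sequences upstream of the RefSeq gene start (GRCm38.p6) were available for 9 of the 10 genes. The stretches upstream of Socs3, the feedback gene that STAT3 induces, and of Il6, the cytokine that gives the family its name, are shown with the letters that match binding motifs in capitals. For Socs3 this is chr11:117969452-117969616 (minus strand, bases −250 to −86 from the RefSeq start), with 1 match to the STAT motif TTCNNNGAA starting at −154. The GENCODE gene model of Socs3 starts farther upstream than RefSeq's, so this stretch lies within it, in an intron. The other part of the 250-base window, in which 77 bases are exonic in GENCODE, is not printed. For Il6 this is chr5:30012864-30013113 (plus strand, bases −250 to −1), with the AP-1 motif TGANTCA at −249 and the NF-kB motif (GGGA and TTCC with 2 bases between them) at −44.
Socs3: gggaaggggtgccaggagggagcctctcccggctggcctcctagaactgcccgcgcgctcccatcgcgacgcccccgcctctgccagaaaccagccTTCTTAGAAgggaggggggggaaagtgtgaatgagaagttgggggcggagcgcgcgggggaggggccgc
Il6: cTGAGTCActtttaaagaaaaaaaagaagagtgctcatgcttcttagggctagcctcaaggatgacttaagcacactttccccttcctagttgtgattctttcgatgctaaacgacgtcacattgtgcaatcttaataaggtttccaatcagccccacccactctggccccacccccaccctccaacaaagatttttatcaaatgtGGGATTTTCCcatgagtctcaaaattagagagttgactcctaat
Both strands were searched over the 250 bases upstream of each gene. The STAT letters were found upstream of 1 of the 9 members, Socs3, and in 7.02% of 32851 promoters. The AP-1 letters were found upstream of 3 members, Il6, Lif and Il11, and in 6.75% of promoters. The NF-kB letters were found upstream of Il6 alone among the members and in 1.21% of promoters. These matches describe letters in a window and do not show binding.

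Per length of transcript, the members covered a wide range of levels in control dermis. On the scale of CPM per kilobase of merged exons (RPKM), Socs3 was the highest member in VAS+H2O at 211 ± 27.8 (SD, n = 3), and its lowest library lay above every library of the other 9. Il6st at 37.9 ± 15.3, Il6 at 27.4 ± 19.2 and Stat3 at 20.3 ± 4.83 RPKM followed, and neighbours among these overlapped between libraries. Lifr, Osmr and Il6ra formed the next group, at 11.3 ± 1.27, 9.13 ± 1.79 and 6.69 ± 1.74 RPKM, again with overlapping neighbours. Osm at 3.38 ± 1.36 and Lif at 3.1 ± 1.87 RPKM overlapped with each other, and Il11 was the lowest at 0.589 ± 0.112 RPKM. Socs3 also came first and Il11 last in IMQ+H2O (153 ± 17.6 and 0.881 ± 0.346 RPKM) and in IMQ+XYF (185 ± 36.4 and 0.851 ± 0.204 RPKM). The order of Osmr and Lifr changed. In VAS+H2O their levels per length overlapped, whereas Osmr lay above Lifr in every library of IMQ+H2O (14.5 ± 1.09 against 11.1 ± 0.757 RPKM) and of IMQ+XYF (15.8 ± 1.8 against 8.6 ± 1.11 RPKM).

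To describe the effect of imiquimod on dermal RNA, IMQ+H2O was set against VAS+H2O. No member was called by edgeR, against 0.994% of all tested genes. At an unadjusted p under 0.05, Osm and Osmr were higher and Socs3 was lower, so that 3 of 10 members passed this weaker limit, against 20.9% of all tested genes (10.1% higher and 10.8% lower). DESeq2's Wald test also called 0 members, and it called 3.88% of the genes it tested. The groups did not overlap for Osmr and Socs3, 2 of 10 members against 31.5% of all tested genes (15.1% higher and 16.5% lower). The median log2 fold change was 0.43 over the members and −0.0231 over all tested genes. Counts of members past these limits were thus near the share of all genes.

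**Figure D1:**
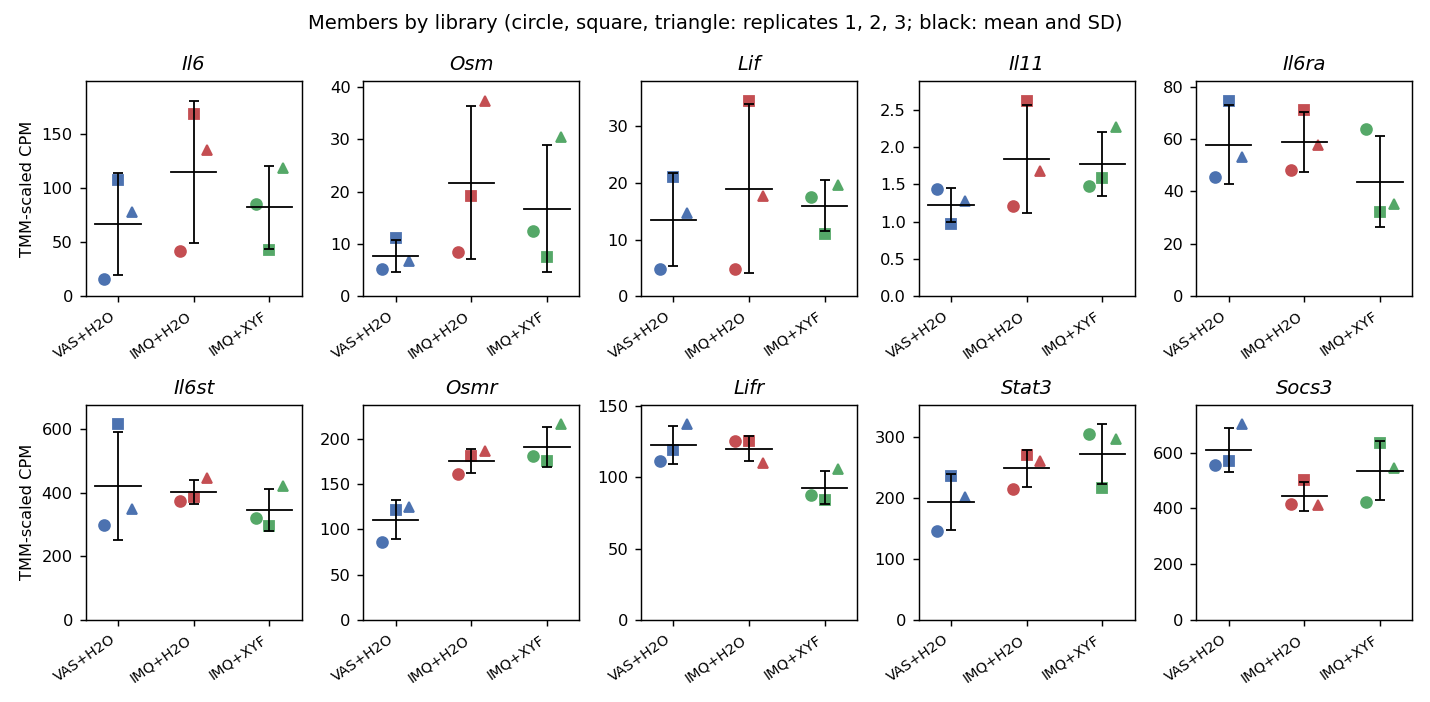
TMM-scaled CPM of the 10 members in each library, by group, on axes that start at 0. Circles, squares and triangles are replicates 1, 2 and 3, and black lines and bars are the mean and SD of 3 libraries. Osmr in VAS+H2O lay below both imiquimod groups, while Il6, Osm and Lif varied widely within groups.

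Among the ligands, Il6, Osm and Lif differed more between replicates than most genes. Il6, the cytokine that drives the acute phase response, had 15.5, 107 and 77.4 CPM in VAS+H2O. It had 41.8, 168 and 135 CPM in IMQ+H2O, and 85.4, 42.3 and 118 CPM in IMQ+XYF. All groups overlapped, and the control libraries alone spanned 6.91-fold. The log2 fold change by imiquimod was 0.79 (SE 0.71, edgeR p 0.294, adjusted p 0.555), and the 95% interval of the fold ran from 0.568 to 5.26. The direction of the Il6 change was not detectable with this spread.

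Osm encodes oncostatin M, a cytokine made mainly by neutrophils, macrophages and T cells. It had 5.22, 11.1 and 6.69 CPM in VAS+H2O, 8.54, 19.1 and 37.4 CPM in IMQ+H2O, and 12.4, 7.44 and 30.4 CPM in IMQ+XYF. IMQ+H2O 2 and 3 lay above all control libraries, and IMQ+H2O 1 lay among them. Osm had the largest fitted change by imiquimod of the 10 members, at a log2 fold change of 1.50 (SE 0.63, edgeR p 0.042, adjusted p 0.222). This was a fold of 2.83 with a 95% interval from 1.05 to 7.66, and leaving out 1 library moved the log2 value between 0.87, without IMQ+H2O 3, and 1.88.

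The neutrophil list summed to 127 to 157 CPM in VAS+H2O, 377 to 907 CPM in IMQ+H2O and 232 to 659 CPM in IMQ+XYF. Of its 8 genes 7 were tested and 4 were called higher by imiquimod, against 0.646% of all tested genes. Ly6g, the defining surface marker, was at 0 CPM in VAS+H2O and at most 0.624 CPM elsewhere. Most of the control sum was Il1r2, at 120 to 134 CPM. In both imiquimod groups S100a8, S100a9 and Il1r2 made most of the sum. Which cells these reads came from was not tested. S100a9, a calprotectin subunit abundant in neutrophils and picked here after its values were seen, had 1.41, 7.89 and 4.47 CPM in VAS+H2O. It had 96.6, 107 and 301 CPM in IMQ+H2O, and 139, 80.6 and 228 CPM in IMQ+XYF. The libraries stood in the same order as for Osm within all 3 groups for 3 of the 8 listed genes, S100a8, S100a9 and Csf3r. The other 5 broke that order in at least 1 group. Osm was lowest in VAS+H2O 1, IMQ+H2O 1 and IMQ+XYF 2, as were 10.6% of all tested genes. The share of all tested genes with the full order was not counted. The part of neutrophils in the Osm values was not tested.

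Lif, encoding leukemia inhibitory factor, had 4.85, 21 and 14.7 CPM in VAS+H2O, 4.75, 34.5 and 17.7 CPM in IMQ+H2O, and 17.5, 10.9 and 19.6 CPM in IMQ+XYF. Its lowest control and lowest imiquimod libraries were at about the same level, and the log2 fold change by imiquimod of 0.50 had an SE of 0.68 (edgeR p 0.483, adjusted p 0.712). Without IMQ+H2O 2 it was −0.26. Il11, a cytokine known from fibroblasts and fibrosis, was rare, with 35 to 139 counts per library. Its levels were 0.973 to 1.43 CPM in VAS+H2O, 1.21 to 2.62 CPM in IMQ+H2O and 1.47 to 2.26 CPM in IMQ+XYF, which set IMQ+XYF just above the controls. For Il11 the log2 fold change by imiquimod was 0.58 (SE 0.33, edgeR p 0.115, adjusted p 0.347), a 95% interval of the fold from 0.887 to 2.53.

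Among the receptor chains, Osmr alone had an unadjusted p under 0.05 for imiquimod. Osmr, the chain that pairs with gp130 to bind oncostatin M, had 85.7, 121 and 125 CPM in VAS+H2O. It had 161, 181 and 186 CPM in IMQ+H2O, and 181, 176 and 216 CPM in IMQ+XYF. Every library with imiquimod lay above every library without it. The log2 fold change by imiquimod was 0.67 (SE 0.16, edgeR p 0.00218, adjusted p 0.0731), a fold of 1.59 with a 95% interval from 1.24 to 2.04. Under DESeq2 its adjusted p was 0.00449, with the change still below the limit of 1 on the log2 scale. Keratinocytes also express Osmr, and the keratinocyte list summed to 3100 to 5990 CPM in VAS+H2O and 2080 to 3100 CPM in IMQ+H2O, lower where Osmr was higher, but to 3780 to 14600 CPM in IMQ+XYF. The 6 endothelial genes summed to 516 to 853 CPM in VAS+H2O, 1070 to 1140 CPM in IMQ+H2O and 415 to 1020 CPM in IMQ+XYF. The part of either cell type in the Osmr values was not tested.

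Il6ra, the IL-6-binding chain, had 45.7, 74.7 and 53 CPM in VAS+H2O and 48.2, 71 and 57.6 CPM in IMQ+H2O. Both groups covered the same range, and the fold by imiquimod had a 95% interval from 0.647 to 1.61 (log2 fold change 0.03, SE 0.29, edgeR adjusted p 0.968). Il6st, the shared gp130 chain, had 298, 615 and 350 CPM in VAS+H2O, where replicate 2 stood high, and 375, 387 and 445 CPM in IMQ+H2O. Its log2 fold change was −0.06 (SE 0.26, edgeR adjusted p 0.908), and 0.31 without VAS+H2O 2. Lifr, the chain for LIF, had 111, 119 and 137 CPM in VAS+H2O and 125, 125 and 110 CPM in IMQ+H2O. It was the least variable member, and its interval for imiquimod was the narrowest, from 0.807 to 1.19-fold (log2 fold change −0.03, SE 0.12, edgeR adjusted p 0.919).

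Stat3 had 145, 236 and 201 CPM in VAS+H2O, 214, 270 and 261 CPM in IMQ+H2O, and 304, 216 and 296 CPM in IMQ+XYF. Control and imiquimod libraries overlapped, with a log2 fold change of 0.36 (SE 0.2, edgeR p 0.111, adjusted p 0.342). Socs3 had 555, 572 and 702 CPM in VAS+H2O, 415, 502 and 413 CPM in IMQ+H2O, and 425, 634 and 547 CPM in IMQ+XYF. All 3 libraries of IMQ+H2O lay below all 3 control libraries. The log2 fold change of Socs3 by imiquimod was −0.46 (SE 0.17, edgeR p 0.0245, adjusted p 0.176), a fold of 0.728 with a 95% interval from 0.557 to 0.95. The adjusted p under DESeq2 was 0.127. Socs3 counts per Stat3 count were 3.83, 2.42 and 3.5 in VAS+H2O against 1.95, 1.86 and 1.58 in IMQ+H2O, a ratio added after the data were examined. In IMQ+XYF they were 1.4, 2.94 and 1.85, which overlapped both other groups. The exact permutation p was 0.1 for imiquimod, the smallest possible, 0.9 for XYF and 0.2 for IMQ+XYF against VAS+H2O.

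Immediate early, cartilage and keratinocyte genes had low sums in IMQ+H2O, where Socs3 had its lowest mean. A list of 8 immediate early and stress genes, chosen after the data were examined and so no independent evidence, summed to 7830 to 11000 CPM in VAS+H2O, 4910 to 6080 CPM in IMQ+H2O and 6960 to 8160 CPM in IMQ+XYF. Of the 8, 0 were called by edgeR for imiquimod. At an unadjusted p under 0.05, 5 were lower (Fosb, Egr1, Jun, Atf3 and Ier2), against 10.8% of all tested genes. Dusp1, Hspa1a and Hspa1b were at −0.30, −0.09 and −0.07 on the log2 scale. By XYF, 0 were called and 5 were higher at that limit (Egr1, Jun, Ier2, Hspa1a and Hspa1b), against 6.35% of all tested genes. The 6 cartilage genes summed to 874 to 1620 CPM in VAS+H2O, 247 to 404 CPM in IMQ+H2O and 510 to 1550 CPM in IMQ+XYF. By imiquimod 2 of them were called lower, against 0.348% of all tested genes. The keratinocyte list summed to 3100 to 5990 CPM in VAS+H2O, 2080 to 3100 CPM in IMQ+H2O and 3780 to 14600 CPM in IMQ+XYF. The part of these groups of genes in the Socs3 values was not tested. By root-mean-square difference of centred log2 CPM over the 9 libraries, among 13683 candidate genes, the patterns most like Socs3 were those of Gli2 (0.073), Slc2a13 (0.085), Tnrc18 (0.092), Prdx4 (0.093) and Sirt4 (0.093), where Socs3 itself had a spread of 0.26. For Osmr, with a spread of 0.39, they were Tubb5 (0.12), Hivep3 (0.12), Rpp38 (0.125), Slc3a2 (0.126) and Cenpw (0.126).

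The effect of XYF under imiquimod was read from IMQ+XYF against IMQ+H2O. This comparison shares the IMQ+H2O libraries with the comparison above. No member was called by edgeR or DESeq2, against 0.00892% of all tested genes in edgeR and 1.14% in DESeq2. Lifr was the only member at an unadjusted p under 0.05 and the only one whose groups did not overlap, 1 of 10 against 11.7% and 18% of all tested genes (lower, 5.39% and 8.74%). The median log2 fold change was −0.23 over the members and 0.00545 over all tested genes.

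Lifr had 87.6, 84.2 and 106 CPM in IMQ+XYF, below the lowest IMQ+H2O library at 110 CPM. The log2 fold change of Lifr by XYF was −0.37 (SE 0.12, edgeR p 0.0161, adjusted p 0.375), a fold of 0.773 with a 95% interval from 0.635 to 0.941. DESeq2 gave it an adjusted p of 0.181. The 6 endothelial genes summed to 1070 to 1140 CPM in IMQ+H2O and 415 to 1020 CPM in IMQ+XYF. Keratinocyte, skeletal muscle, cartilage, monocyte-macrophage and adipocyte sums did not overlap between these groups either. The adipocyte sum was mostly Fabp4, the only one of the 6 adipocyte genes without overlap. The part of these cell types in the Lifr values was not tested. For Osmr the log2 fold change by XYF was 0.12 (SE 0.16, edgeR p 0.472, adjusted p 0.787), an interval of the fold from 0.848 to 1.39.

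The ligands were spread too widely to place the XYF change. Il6 had a log2 fold change of −0.49 (SE 0.7, edgeR p 0.506, adjusted p 0.806) and an interval of the fold from 0.235 to 2.16. For Osm it was −0.38 (SE 0.62, edgeR p 0.558, adjusted p 0.832), and the interval ran from 0.293 to 2.03-fold. Both intervals hold a halving as well as a doubling. Osm turned to 0.30 without IMQ+H2O 3 and Lif turned from −0.25 to 0.51 without IMQ+H2O 2. Il11 was at −0.06 (SE 0.33, edgeR adjusted p 0.959).

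Among the remaining receptors, Il6ra had 63.9, 32.3 and 35.2 CPM in IMQ+XYF, with replicates 2 and 3 below all other libraries of the study. Its log2 fold change by XYF was −0.43 (SE 0.29, edgeR p 0.175, adjusted p 0.568). Il6st had 321, 296 and 420 CPM, and a log2 fold change of −0.22 (SE 0.26, edgeR p 0.42, adjusted p 0.76). Stat3 was at 0.13 (SE 0.2, edgeR adjusted p 0.819), an interval of the fold from 0.797 to 1.5. Socs3 was at 0.27 (SE 0.17, edgeR p 0.143, adjusted p 0.54), an interval from 0.925 to 1.58. The IMQ+XYF libraries of Socs3 reached from the level of IMQ+H2O to that of the controls.

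**Figure D2:**
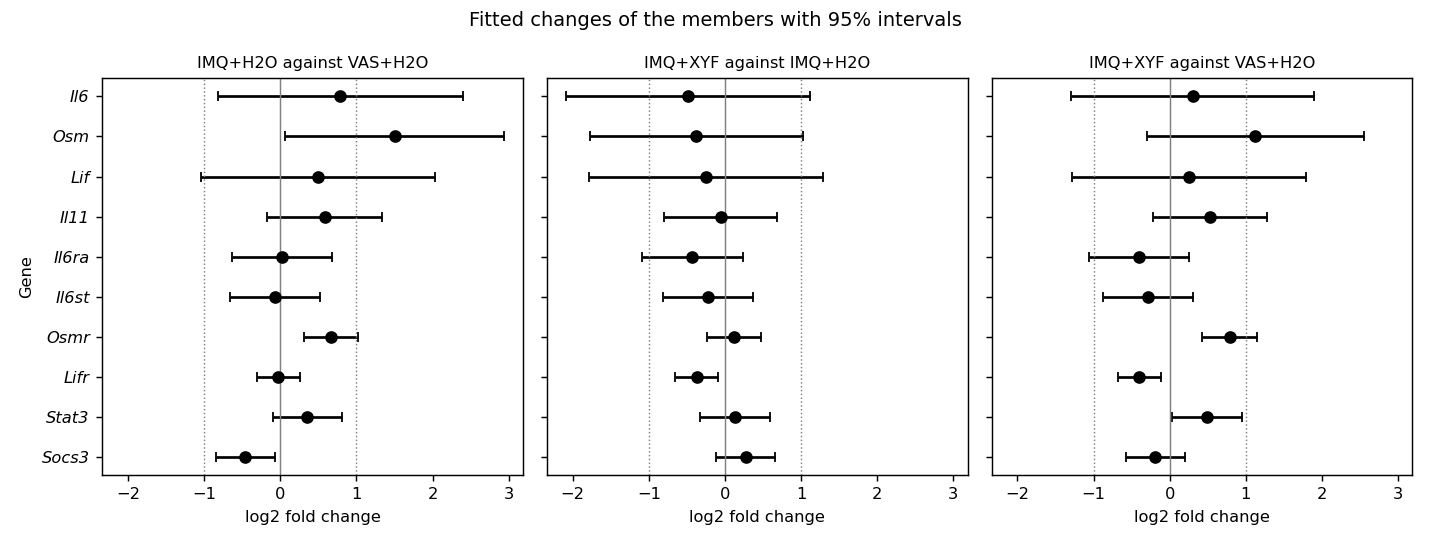
Fitted log2 fold change of each member (points) with its 95% interval (bars) in the 3 comparisons, with dotted lines at the limit of 1 on either side of 0. The intervals of Il6, Osm and Lif were the widest, and the interval of Osmr lay above 0 in both comparisons with VAS+H2O.

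The comparison of IMQ+XYF with VAS+H2O set the treated group against the control, and it shares libraries with both others. No member was called by edgeR or DESeq2, against 1.2% and 3.46% of the genes they tested. Osmr and Stat3 were higher and Lifr was lower at an unadjusted p under 0.05, 3 of 10 members against 18.3% of all tested genes (9.58% higher and 8.76% lower). Il11, Osmr and Lifr had groups that did not overlap, against 22.1% of all tested genes (11.7% higher and 10.3% lower). Osmr passed the limit on the adjusted p, with a fold of 1.73 and a 95% interval from 1.35 to 2.21 (log2 fold change 0.79, SE 0.16, edgeR adjusted p 0.0468). It was not called because its change was below 1 on the log2 scale, and over the alternatives its adjusted p ran from 0.000317 to 0.132. Lifr was at −0.40 (SE 0.12, edgeR adjusted p 0.137), and Stat3 was at 0.49 (SE 0.2, edgeR adjusted p 0.243).

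Receptor balance was compared within libraries, where the scaling between libraries drops out. Oncostatin M in the mouse acts mainly through OSMR with gp130, whereas LIF requires LIFR with gp130. The count of Osmr per count of Lifr was 0.775, 1.02 and 0.911 in VAS+H2O, 1.29, 1.46 and 1.68 in IMQ+H2O, and 2.07, 2.08 and 2.03 in IMQ+XYF. The 3 groups did not overlap. On the log2 scale the ratio was higher by 0.71 in IMQ+H2O than in VAS+H2O, by 0.49 in IMQ+XYF than in IMQ+H2O and by 1.20 in IMQ+XYF than in VAS+H2O. Each difference had a two-sided exact permutation p of 0.1, the smallest that 3 against 3 libraries allow, before any adjustment. Leaving out 1 library moved these differences within 0.61 to 0.80, 0.40 to 0.59 and 1.10 to 1.29. The members were chosen with earlier results of these data known, and how often other pairs of genes separate was not counted. For single genes, 31.5%, 18% and 22.1% of all tested genes had no overlap in the same 3 comparisons. Between IMQ+H2O and IMQ+XYF the keratinocyte sums (2080 to 3100 and 3780 to 14600 CPM) did not overlap either. Nor did the endothelial sums (1070 to 1140 and 415 to 1020 CPM) or the skeletal muscle sums (630 to 1260 and 71.5 to 472 CPM). Cartilage (247 to 404 and 510 to 1550 CPM), monocyte-macrophage (850 to 1240 and 745 to 820 CPM) and adipocyte sums (706 to 840 and 284 to 693 CPM) were also apart. Most of the adipocyte sum was Fabp4 (577 to 747 and 229 to 490 CPM), and the other listed adipocyte genes overlapped between these groups. The other cell type lists overlapped. The part of these cell types in the ratio was not tested.

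Osmr counts per Il6st count gave the same order of groups. They were 0.288, 0.197 and 0.357 in VAS+H2O, 0.429, 0.468 and 0.417 in IMQ+H2O, and 0.564, 0.594 and 0.514 in IMQ+XYF, again without overlap. The log2 differences were 0.68, 0.35 and 1.03, each with an exact permutation p of 0.1. Lifr per Il6st, a ratio added after the data were examined, overlapped between all groups, with log2 differences of −0.03, −0.14 and −0.17 (exact permutation p 1, 0.4 and 0.7). The 4 ratios over 3 comparisons share genes and libraries, so they are not independent of each other or of the fitted changes above.

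**Figure D3:**
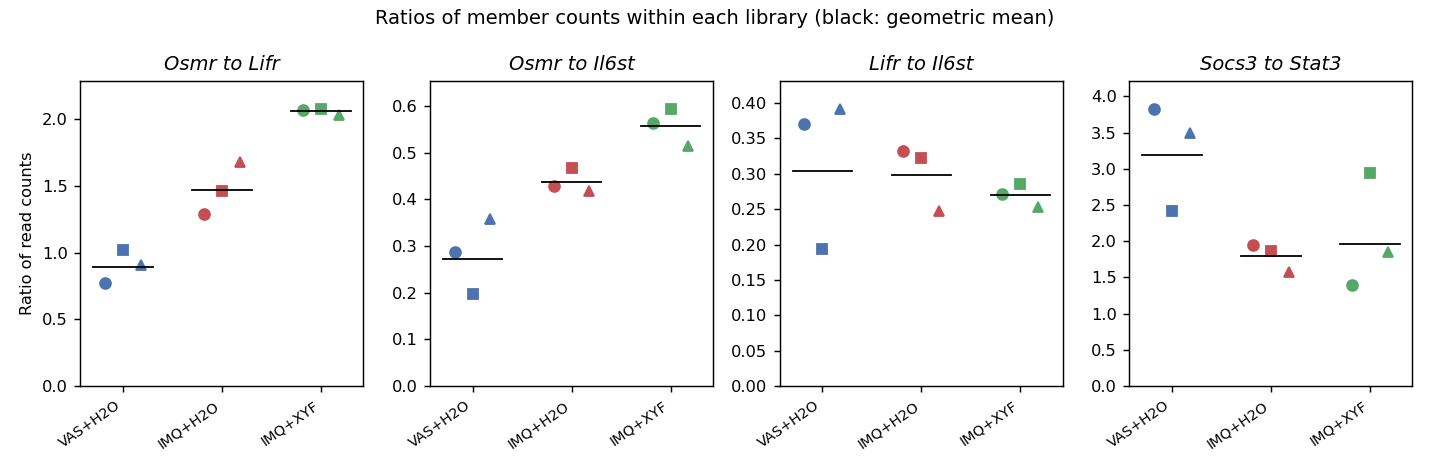
Ratios of the read counts of 2 members within each library, by group, on axes that start at 0. Symbols are replicates 1 (circle), 2 (square) and 3 (triangle), and black lines are geometric means. Osmr per Lifr lay between 0.775 and 1.02 in VAS+H2O and between 2.03 and 2.08 in IMQ+XYF, while Lifr per Il6st overlapped between groups.

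Variation between replicates split the members. The biological coefficient of variation, the replicate spread fitted by edgeR, was 0.581 for Il6, 0.567 for Lif and 0.521 for Osm, against a median of 0.243 over all tested genes. These 3 ligands ranked at the 90.7, 90.2 and 87.7 percentile of tested genes. Osmr at 0.161 and Lifr at 0.139 ranked at the 25 and 15 percentile. Over the 10893 tested genes with a mean of at least 10 CPM the median was lower, at 0.159, and near the values of Osmr and Lifr. The spread had a common order. VAS+H2O 1, IMQ+H2O 1 and IMQ+XYF 2 were the lowest libraries of their groups for 7 of the 10 members (Il6, Osm, Lif, Il6ra, Il6st, Osmr and Stat3), a pattern seen for 10.6% of all tested genes and noticed in these data. Of the 11 cell type marker lists, 3 were also lowest in these libraries. They were the fibroblast list (15100, 10800 and 10900 CPM), the neutrophil list (127, 377 and 232 CPM) and the mast cell list (240, 253 and 196 CPM), and their part in the spread was not tested.

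The wider pathway was described with 5 lists of 74 genes, 73 of which were tested. Il31 had 0 counts in all libraries. In edgeR, imiquimod gave 6 calls, all higher (0.646% of all tested genes) and all among genes described as induced by STAT3. XYF against IMQ+H2O gave 0, and IMQ+XYF against VAS+H2O gave 5, again all higher (0.695% of all tested genes). DESeq2 called 12, 0 and 9 in the same comparisons, all higher. Over all genes it tested, DESeq2 called 3.88%, 1.14% and 3.46% in either direction. Of the 12, 8 were STAT3 targets and the others were Ebi3, Il27ra, Cntfr and Stat4. Among the other cytokines and receptors of the family, 11 were tested and 0 were called by edgeR for imiquimod. An unadjusted p under 0.05 was reached by 5, against 20.9% of all tested genes, while DESeq2 called 3 of the 11 higher. Ebi3, a subunit of IL-27 and IL-35, went from 1.19 to 2.16 CPM in VAS+H2O to 4.41 to 5.68 CPM in IMQ+H2O, without overlap (log2 fold change 1.52, SE 0.3, edgeR adjusted p 0.0514, DESeq2 adjusted p 0.000196). Il27ra, the IL-27 receptor chain, had 0.945 to 1.21 CPM and 2.24 to 3.43 CPM in the same groups (log2 fold change 1.47, SE 0.37, edgeR adjusted p 0.0842, DESeq2 adjusted p 0.00572). Cntfr, the CNTF receptor chain, was at 1.07 by imiquimod (edgeR adjusted p 0.145, DESeq2 adjusted p 0.043). Its groups overlapped, with IMQ+H2O 1 at 39.9 CPM and VAS+H2O 1 at 41.9 CPM. Clcf1, encoding the cardiotrophin-like cytokine, was at −0.52 by imiquimod and 0.51 by XYF (edgeR adjusted p 0.128 and 0.364), comparisons that share the IMQ+H2O libraries. Cntf and Cntfr, a neurotrophic cytokine and its receptor, were at −0.90 and −0.77 by XYF (edgeR adjusted p 0.424 and 0.431).

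Proteases that shed the IL-6 receptor, the kinase and STAT relay and the inhibitors had 0 calls in edgeR, and DESeq2 called Stat4 alone among them. Of the 4 shedding genes, the iRhom gene Rhbdf1 was at −0.19 by imiquimod and −0.18 by XYF (edgeR adjusted p 0.22 and 0.424). The other iRhom gene, Rhbdf2, was at −0.13 and 0.18, and the protease gene Adam10 at 0.25 and −0.45 (edgeR adjusted p 0.511 and 0.431). Of 14 genes of the kinase and STAT relay, 2 had an unadjusted p under 0.05 for imiquimod and 0 for XYF, against 20.9% and 11.7% of all tested genes. Those 2 were the adaptor gene Gab1 at −0.42 (edgeR adjusted p 0.0793) and Stat4, the STAT of IL-12 signalling, at 2.26 (edgeR adjusted p 0.125, DESeq2 adjusted p 0.017), where IMQ+H2O 1 at 0.344 CPM lay among the controls and the other replicates reached 2.64 and 2.96 CPM. Stat5a was at 0.27 by imiquimod, and Tyk2, Jak3 and Grb2 were at −0.27, −0.48 and −0.34 by XYF (edgeR adjusted p 0.481, 0.58 and 0.605). Of 14 inhibitors, Socs7 had an adjusted p below the limit for imiquimod, with 46.5, 56.5 and 48.5 CPM in VAS+H2O and 34.3, 33.7 and 31.4 CPM in IMQ+H2O. Its log2 fold change was −0.61 (SE 0.1, edgeR adjusted p 0.0342), short of the limit on size. Ptpn6, encoding the phosphatase SHP-1 of blood cells, was at 0.80 (edgeR adjusted p 0.0716) and Ptpn1 at 0.29 (edgeR adjusted p 0.231). By XYF, Socs5, Socs7 and Socs6 were at 0.29, 0.21 and 0.70 (edgeR adjusted p 0.387, 0.451 and 0.48).

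Among genes described as induced by STAT3, Lcn2, Timp1, Hp, Serpina3n, Lrg1 and Saa3 rose with imiquimod. Of 30 tested, these 6 were called higher and 0 lower by imiquimod, against 0.646% and 0.348% of all tested genes. The list was chosen with earlier results of these data known, so its count beside that share is no independent evidence. At an unadjusted p under 0.05, 12 were higher and 3 were lower, against 10.1% and 10.8% of all tested genes, and 15 did not pass. The median log2 fold change was 0.24. Lcn2, the iron-binding lipocalin, rose most clearly, with 20.5, 32.2 and 22.4 CPM in VAS+H2O and 188, 215 and 296 CPM in IMQ+H2O. Its log2 fold change was 3.22 (SE 0.23, edgeR adjusted p 0.00255), and it stayed called under all 14 alternatives. Timp1, an inhibitor of matrix metalloproteinases, rose from 14.5, 18.9 and 16.3 CPM to 94.5, 221 and 217 CPM (log2 fold change 3.42, SE 0.54, edgeR adjusted p 0.0279). Hp, the haemoglobin-binding haptoglobin, Serpina3n, a protease inhibitor, and Lrg1, a secreted glycoprotein, rose by 2.31, 2.26 and 2.15 on the log2 scale (edgeR adjusted p 0.0435, 0.0177 and 0.0421). The acute phase gene Saa3 rose by 8.34 (SE 1.02, edgeR adjusted p 0.0162), and its imiquimod libraries ranged from 64.5 to 752 CPM. How reads were split among the serum amyloid genes was not stated. The neutrophil sums were also higher, at 127 to 157 CPM in VAS+H2O and 377 to 907 CPM in IMQ+H2O. Endothelial sums and adipocyte sums (mostly Fabp4) were higher and cartilage sums lower, without overlap. Whether the 6 genes rose through STAT3 or with such shifts in cell types was not tested.

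The number of STAT3 targets called by imiquimod depended on single libraries. It was 1, Lcn2, without VAS+H2O 1, VAS+H2O 2, VAS+H2O 3 or IMQ+H2O 2, it was 2 without IMQ+H2O 3, and over all 14 alternatives it ran from 1 to 8. The 3 lower genes, a number near the share of all tested genes, were Junb, Fos and Zfp36. They were at −0.57, −0.73 and −0.71 on the log2 scale, none of them called. Fos had 3240, 2850 and 4030 CPM in VAS+H2O and 1800, 2240 and 2070 CPM in IMQ+H2O, and Junb and Zfp36 likewise did not overlap. Socs3, also described as induced by STAT3, was lower in the same libraries as these 3 genes and not higher as the 6 called genes were.

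XYF against IMQ+H2O gave 0 calls among the 30 targets in edgeR and under every alternative, with 2 higher and 1 lower at an unadjusted p under 0.05 (6.35% and 5.39% of all tested genes). Lcn2 had 147, 140 and 163 CPM in IMQ+XYF, below all 3 IMQ+H2O libraries and above all controls, with a log2 fold change of −0.63 (SE 0.21, edgeR p 0.0142, adjusted p 0.367). Junb and Fos were at 0.39 and 0.49 (edgeR adjusted p 0.379 and 0.413). Against VAS+H2O, IMQ+XYF had 5 targets called, Timp1, Hp, Lcn2, Serpina3n and Saa3, with log2 fold changes of 3.57, 2.65, 2.58, 2.06 and 6.93. The number of calls there ran from 1 to 7 over the 14 alternatives. Timp1 and Hp were at 0.15 and 0.35 by XYF, and Timp1 turned to −0.61 without IMQ+XYF 3.

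**Figure D4:**
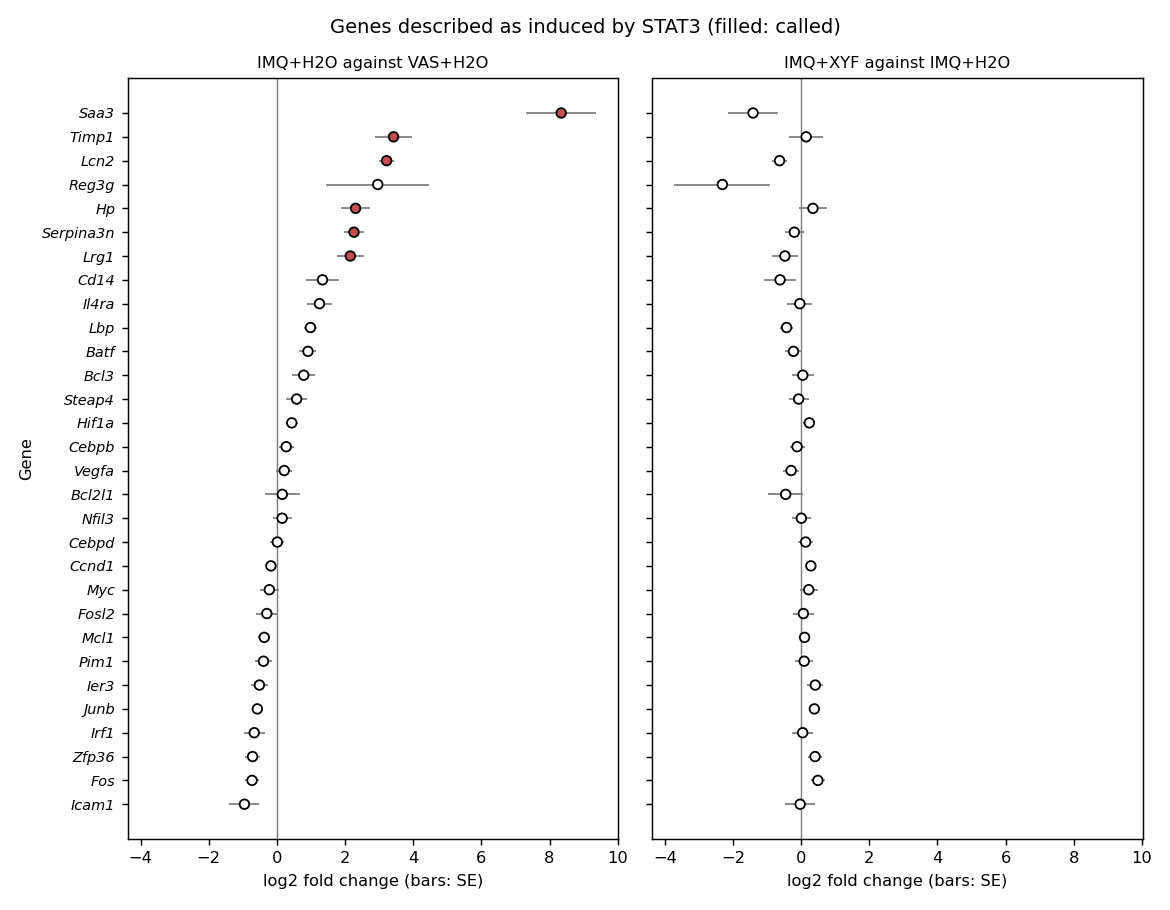
Log2 fold change (points) and SE (bars) of 30 genes described as induced by STAT3, for imiquimod (left) and for XYF in imiquimod-treated mice (right), ordered by the change by imiquimod. Filled points are called genes, 6 on the left and 0 on the right, and both panels share the IMQ+H2O libraries.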

How the data were processed

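Dermis RNA from 9 libraries was compared in 3 groups of 3, assigned from the sample titles. The authors deposited whole-number read counts per Ensembl gene, not normalized. According to the submitters' notes and the methods, reads were aligned with STAR 2.5 to GRCm38 and tested with DESeq2. The counting tool and its use of strand are not given in the sources used here, although the labels describe the libraries as strand-specific. Counts were tested with edgeR 4.0.16 in R 4.3.3 (filterByExpr, TMM factors, 1 quasi-likelihood fit of all 9 libraries, Benjamini-Hochberg adjustment over 22430 genes). The SE was obtained from the fitted change and its F statistic. CPM are TMM-scaled, and RPKM use merged exon lengths. Ratios of members were tested by exact permutation. The fit was tested on simulated counts with known changes. Alternatives were DESeq2 1.42.0, RLE factors, no filter, only the 2 groups compared, a replicate block, and leaving out each library.

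The members and lists were chosen with earlier results of these data known. Named were all members, called genes of the pathway lists, the 3 smallest p-values per list for imiquimod and for XYF, and the 5 genes most like Socs3 and Osmr. Genes outside this rule are named as chosen after their values were seen, or as examples of the counted genes. Replicates differed by more than counting error (chi-squared per degree of freedom 37.5 to 218). Il11, at 35 to 139 counts a library, was the member with the fewest reads.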

Additional observations from a re-analysis of the deposited data

How the results depend on the processing

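Across 14 alternatives no member was called in any comparison, and of 420 recomputed member changes 400 kept their sign and 20 reversed. Genes called over the whole table were less stable. For IMQ+H2O against VAS+H2O they numbered 223, 945 with DESeq2, 496 with only the 2 groups, and 25 to 455 when 1 library was left out. For IMQ+XYF against IMQ+H2O they numbered 2, 223 with DESeq2, 1 with only the 2 groups, and 0 to 4 when 1 library was left out (edgeR, 2547 genes at an unadjusted p under 0.05 without VAS+H2O 3 and 1851 without IMQ+H2O 1). For IMQ+XYF against VAS+H2O they numbered 270, 701 with DESeq2, 33 with only the 2 groups, and 12 to 592 when 1 library was left out. With the replicate block the counts were 86, 0 and 54, with 2212 genes at an unadjusted p under 0.05 in the second. No pairing of samples by replicate number was seen, though correlations with 3 libraries a group cannot exclude it. Of 9 same-number pairs 1 had a correlation of deviations over 0.1 (range −0.183 to 0.125), and 1 of 9 libraries correlated best with its own number.

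Members whose sign reversed, and the STAT3 targets Timp1 and Serpina3n, had values within 1 SE of 0 or rested on 1 library. The cause was not tested. By imiquimod, leaving out 1 library gave −0.098 to 0.063 for Lifr, −0.131 to 0.251 for Il6ra, −0.264 to 0.31 for Il6st and −0.258 to 0.954 for Lif. Lifr was also 0.001 with RLE factors and 0.002 with only the 2 groups. By XYF the ranges were −0.702 to 0.508 for Lif, −0.276 to 0.292 for Il11, −1.128 to 0.299 for Osm, −0.614 to 0.513 for Timp1 and −0.402 to 0.117 for Serpina3n, and Lif was 0.244 with the replicate block. Between IMQ+XYF and VAS+H2O they were −0.166 to 0.818 for Il6, −0.149 to 0.71 for Lif and −0.479 to 0.094 for Il6st. Over all alternatives the adjusted p (edgeR or DESeq2) by imiquimod ran from 0.00449 to 0.222 for Osmr, from 0.0886 to 0.534 for Osm and from 0.105 to 0.392 for Socs3, and that of Lifr by XYF from 0.181 to 0.621. With 3 libraries a group, the spread of Il6, Osm and Lif left wide intervals for these members.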
